A study of Homo sapiens with 10 samples.

Results

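Values are described for 9 genes of the tricarboxylic acid (TCA) cycle: citrate synthase (CS), the isocitrate dehydrogenases IDH1, IDH2 and IDH3A, oxoglutarate dehydrogenase (OGDH), the succinate dehydrogenase subunits SDHA and SDHB, fumarate hydratase (FH) and malate dehydrogenase 2 (MDH2). They were chosen by name, as rows of the gene count table, by a rule that does not use their values, although earlier results of these data were known when the list was made. All 9 were found among 57353 gene symbols, and all 9 passed the filter on low counts that left 17230 tested genes. RNA was sequenced from the prostate cancer line LNCaP-C4-2, which grows under castrate conditions, after transduction with lentivirus in 4 ways. NT cells (2 samples) carried a scrambled, non-targeting shRNA and KD cells (3 samples) an shRNA against CPT1A, and both were selected with puromycin at 1 ug/ml. EV cells (2 samples) carried an empty vector and OE cells (3 samples) a CPT1A cDNA, and both were selected with blasticidin at 5 ug/ml. CPT1A is the outer membrane transferase that commits long-chain fatty acids to import into mitochondria. Each group is 1 transduced line as far as the study's methods say, so each p-value measures the spread between samples of a line and not between independently made lines.

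The TCA cycle oxidises acetyl-CoA, from pyruvate or from fatty acid oxidation, in the mitochondrial matrix and passes the electrons to the respiratory chain as NADH and as the reduced flavin of succinate dehydrogenase. CS joins acetyl-CoA to oxaloacetate, the NAD-dependent IDH3 complex and the OGDH complex carry out the oxidative decarboxylations, and SDH, FH and MDH2 turn succinate back into oxaloacetate. IDH2 in the matrix and IDH1 in the cytosol and peroxisomes use NADP in place of NAD, and they produce or consume NADPH as they interconvert isocitrate and 2-oxoglutarate. Normal prostate epithelium is known for holding back citrate oxidation and secreting citrate, a trait that is lost in prostate cancer.

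The promoters of 4 members are shown. IDH2 and IDH1 were taken because they moved in opposite directions in the results that follow, and SDHB because it moved least in KD cells. MDH2 was taken because it held none of the motifs searched, which was also so for SDHA (not shown). Each is the 250 bases upstream of the MANE Select transcript start, read 5′ to 3′ on the strand of the gene from the hg38 genome with GENCODE v44. Capitals mark a match, on either strand, to the GC box GGGCGG, the CCAAT box CCAAT, the E-box CACGTG, the estrogen-related receptor response element core AAGGTCA, the NRF1 core GCATGCG or the C/EBP-ATF element TGATGCAA. They lie at chr15:90102469-90102718, minus strand, at chr2:208255072-208255321, minus strand, at chr1:17054033-17054282, minus strand and at chr7:76047856-76048105, plus strand.
IDH2 promoter: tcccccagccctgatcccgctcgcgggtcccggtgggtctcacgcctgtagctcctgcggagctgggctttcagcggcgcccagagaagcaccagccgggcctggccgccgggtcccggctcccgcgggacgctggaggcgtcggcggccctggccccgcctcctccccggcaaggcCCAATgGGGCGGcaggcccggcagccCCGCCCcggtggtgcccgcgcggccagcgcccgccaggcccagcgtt
IDH1 promoter: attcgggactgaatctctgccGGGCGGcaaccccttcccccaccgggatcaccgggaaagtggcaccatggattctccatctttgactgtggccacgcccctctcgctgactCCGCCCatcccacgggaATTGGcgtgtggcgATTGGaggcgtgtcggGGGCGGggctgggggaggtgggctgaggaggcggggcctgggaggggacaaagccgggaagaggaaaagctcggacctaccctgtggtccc
SDHB promoter: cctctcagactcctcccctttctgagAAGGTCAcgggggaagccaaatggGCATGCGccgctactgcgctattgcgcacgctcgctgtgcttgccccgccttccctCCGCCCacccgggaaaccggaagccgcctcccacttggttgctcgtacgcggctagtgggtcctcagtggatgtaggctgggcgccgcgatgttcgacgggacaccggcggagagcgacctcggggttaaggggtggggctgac
MDH2 promoter: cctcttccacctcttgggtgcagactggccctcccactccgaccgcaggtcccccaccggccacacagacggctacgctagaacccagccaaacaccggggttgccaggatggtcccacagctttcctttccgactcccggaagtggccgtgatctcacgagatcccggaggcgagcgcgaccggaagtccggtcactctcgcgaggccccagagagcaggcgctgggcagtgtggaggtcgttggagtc
The GC box was found in 7 of the 9 members' windows and in 59.9% of 19060 windows of the same length, and the CCAAT box in 4 of 9 and in 34.4%. SDHB held the AAGGTCA and GCATGCG matches, found in 2.53% and 4.61% of all windows and in no other member. None of the 9 windows held the E-box (7.88% of all windows) or TGATGCAA (0.582%). These matches describe letters only. No binding was measured.

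Libraries held 23555205 to 28615770 counts, and CPM, counts relative to library total, are given after scaling with TMM, which corrects for differences in library composition. Replicate pairs differed by more than counting error (chi-square over its degrees of freedom, 2.08 to 7.29). KD 2 and OE 2 stood farthest from the other replicates of their lines, at 7.14 and 7.29 for the KD 2 pairs and 4.05 and 4.69 for the OE 2 pairs. CPT1A fell in KD cells, from 266 and 262 CPM in the NT samples to 81.2, 86.4 and 86.2, and rose in OE cells, from 326 and 318 CPM in the EV samples to 869.8, 914 and 861. All 10 prostate epithelial markers were above 1 CPM, with a summed level of 6442 to 12720 CPM. Of 8 stromal markers 2 had a median above 1 CPM (summed level 9.87 to 19.3 CPM) and COL1A2 was at 0 in every library, and of 5 immune markers none was (0.0453 to 0.377 CPM). The members together took 0.169% and 0.174% of the counts in the NT libraries, 0.223% to 0.232% in KD, 0.208% in both EV and 0.194% to 0.204% in OE.

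In KD cells, 8 of the 9 genes were higher than in NT cells and 1, IDH1, was lower. IDH2 moved most, at 2.52-fold higher, while the other 7 that rose were 1.14-fold to 1.48-fold higher. The calls were made at an adjusted p under 0.05 with edgeR's quasi-likelihood F test over all 17230 genes, at which 57.5% of all tested genes were called in this comparison, 29.1% of all as higher and 28.4% as lower. These p-values are written as Benjamini-Hochberg adjusted p. At the study's own limit of 0.0001, 8 members were called, where 29.1% of tested genes were. SDHB was the one that missed this limit. The median log2 fold change of the 9 was 0.42, against -0.02 over all tested genes. The summed level of the 8 stromal markers was also higher in KD (17.7 to 19.3 CPM) than in NT (11.0 to 12.6 CPM), and the 3 of them that were tested were called higher, COL1A1 by 0.63, ACTA2 by 0.64 and COL3A1 by 1.23. The 10 prostate epithelial markers summed to 6442 and 6722 CPM in NT, 9210 to 10060 in KD, 8817 and 9246 in EV and 12260 to 12720 in OE. KLK3 was the largest part, with means of 2466 CPM in NT and 4442 in KD. Not all 10 rose. In KD versus NT 7 were called higher and 2 lower, FOLH1 by 0.55 and EPCAM by 0.28. In OE versus EV, where 52.0% of all tested genes were called, 7 were higher and 3 lower (EPCAM, TMPRSS2 and FOLH1). The part of either sum in the members' values was not tested. All samples were cultures of LNCaP-C4-2 cells, so the sums are not read as shares of stromal and epithelial cells. Most of the stromal sum was COL1A1, with means of 9.79 CPM in NT and 15.1 in KD. In bulk RNA, a change in some cells and a change in all cells cannot be told apart.

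IDH2 had 111 and 114 CPM in the NT samples and 289, 293 and 268 CPM in the KD samples. Every KD sample was far above both NT samples. The log2 fold change was 1.33 ± 0.05 (SE; edgeR, Benjamini-Hochberg adjusted p = 2.36e-16). IDH1, the cytosolic and peroxisomal NADP enzyme, had 333 and 320 CPM in NT and 266, 246 and 256 CPM in KD. The groups did not overlap, and IDH1 fell by 0.35 ± 0.05 on the log2 scale (edgeR, Benjamini-Hochberg adjusted p = 5.52e-07). IDH3A, the catalytic subunit of the NAD-dependent enzyme, had 56.9 and 62.4 CPM in NT and 81.2, 75.2 and 84.1 CPM in KD, again without overlap. Its log2 fold change was 0.43 ± 0.06 (edgeR, Benjamini-Hochberg adjusted p = 7.33e-07).

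**Figure D1:**
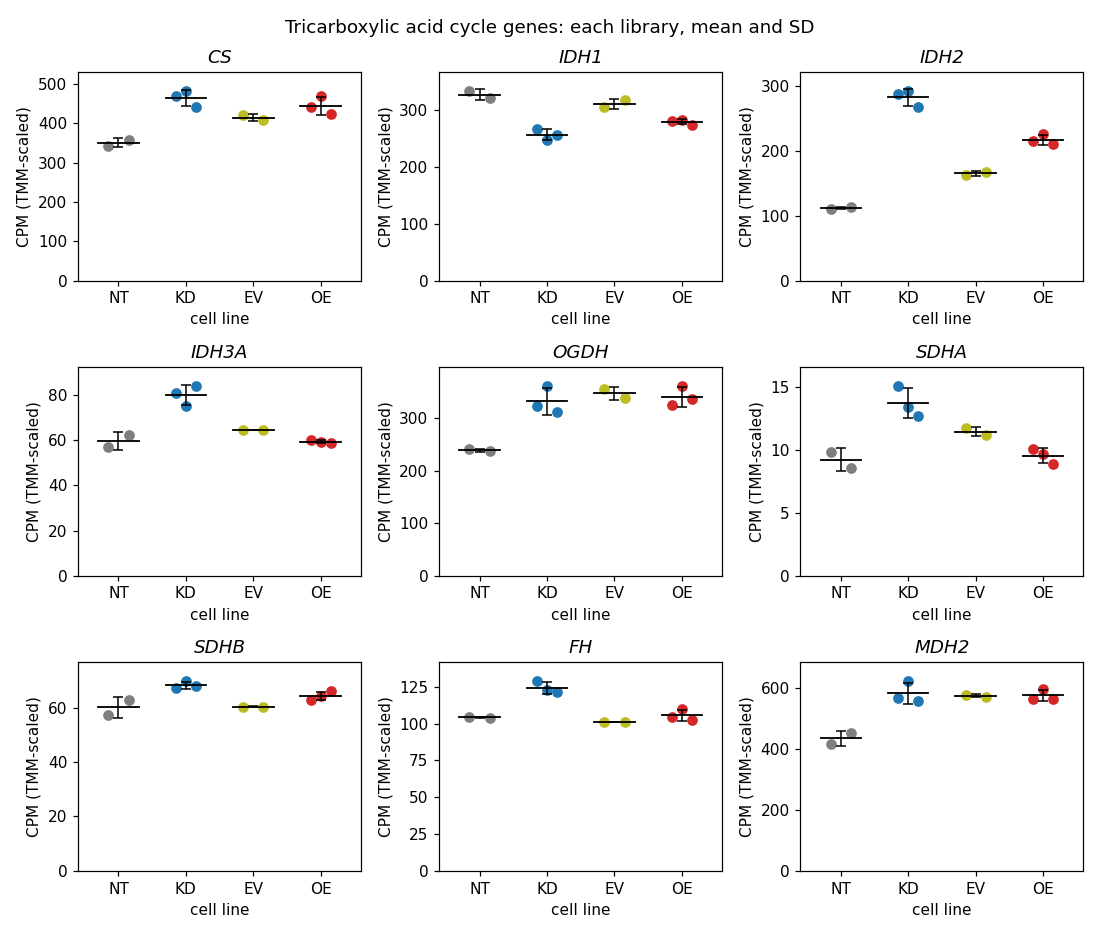
Level of each of the 9 genes in CPM (TMM-scaled; each vertical axis starts at 0) by cell line. Points are libraries, the long horizontal line is the mean and the capped bar the SD (n = 2 for NT and EV, n = 3 for KD and OE). KD samples were highest for IDH2 and lowest for IDH1.

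CS, which starts the cycle, had 344 and 359 CPM in NT and 470.4, 483 and 442 CPM in KD. Its log2 fold change was 0.40 ± 0.05 (edgeR, Benjamini-Hochberg adjusted p = 2.9e-07). OGDH, the decarboxylating subunit of the oxoglutarate dehydrogenase complex, had 241 and 237 CPM in NT and 323, 360.5 and 312 CPM in KD. All 3 KD samples exceeded both NT samples, and the log2 fold change was 0.47 ± 0.06 (edgeR, Benjamini-Hochberg adjusted p = 1.6e-07). MDH2, which regenerates oxaloacetate, had 418 and 453 CPM in NT and 569, 623 and 556 CPM in KD. These too did not overlap, and the log2 fold change was 0.42 ± 0.05 (edgeR, Benjamini-Hochberg adjusted p = 2.47e-07).

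Of the members between succinate and malate, SDHB and FH had the smallest log2 fold changes of the 9 and SDHA a larger one. SDHA, the flavoprotein subunit that oxidises succinate, had 9.85 and 8.58 CPM in NT and 15.1, 13.4 and 12.7 CPM in KD, with a log2 fold change of 0.57 ± 0.10 (edgeR, Benjamini-Hochberg adjusted p = 4.55e-05). SDHB, the iron-sulfur subunit, had 57.5 and 62.8 CPM in NT and 67.2, 69.8 and 67.8 CPM in KD. The gap between the groups was narrow, with a log2 fold change of 0.18 ± 0.05 (edgeR, Benjamini-Hochberg adjusted p = 0.00537). Without NT 1 the value was 0.12 and was no longer called (edgeR, Benjamini-Hochberg adjusted p = 0.154). FH, which hydrates fumarate to malate, had 104 CPM in both NT samples (104.5 and 104.1) and 128.8, 122.8 and 121.3 CPM in KD, a log2 fold change of 0.25 ± 0.05 (edgeR, Benjamini-Hochberg adjusted p = 9.39e-05).

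Fewer members were called in OE cells. Against EV, IDH2 was higher, IDH1 and SDHA were lower, and the other 6 were not called, where 52.0% of all tested genes were called at 0.05 (25.6% higher and 26.4% lower). At 0.0001 IDH2 alone was called, where 21.9% of tested genes were. The median log2 fold change of the 9 was 9e-04, against -0.02 over all tested genes, and the median size regardless of sign was 0.10, against 0.31 over all. The 9 are not matched to all genes in level. Their median mean log2 CPM was 7.61, against 3.77 over all, and 8 of the 9 were above that median. The part of level in these sizes and in the shares called, in any comparison, was not tested.

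IDH2 had 162.5 and 168 CPM in EV and 215, 226 and 211 CPM in OE. All OE samples were higher than both EV samples, by 0.39 ± 0.05 on the log2 scale or 1.31-fold (edgeR, Benjamini-Hochberg adjusted p = 5.11e-07). IDH1 had 304 and 317 CPM in EV and 281, 282 and 273 CPM in OE, and it fell by 0.15 ± 0.05 on the log2 scale (edgeR, Benjamini-Hochberg adjusted p = 0.00694). That direction did not hold with an offset for GC content, which turned it to 0.04 (edgeR, Benjamini-Hochberg adjusted p = 0.465), and without EV 2 the value was -0.12 and not called (edgeR, Benjamini-Hochberg adjusted p = 0.122). SDHA had 11.7 and 11.2 CPM in EV and 10.1, 9.64 and 8.86 CPM in OE, and it fell by 0.27 ± 0.10 on the log2 scale (edgeR, Benjamini-Hochberg adjusted p = 0.0374). That call was lost without any filter, with DESeq2 (-0.25, Benjamini-Hochberg adjusted p = 0.0995) and when EV 1, EV 2, OE 2 or OE 3 was left out, at values of -0.21 to -0.30.

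The 6 members that were not called can be read from their intervals. For MDH2 (579 and 573 CPM in EV, 565, 598 and 566 CPM in OE) the 95% interval of the log2 fold change was -0.11 to 0.11, and for OGDH (356 and 338 CPM in EV, 324, 361 and 335.5 CPM in OE) it was -0.14 to 0.09. The samples of both genes overlapped between the lines. CS had 421 and 409.6 CPM in EV and 441, 469 and 424 CPM in OE, with an interval of -0.01 to 0.20. IDH3A had an interval of -0.24 to 0.00, SDHB of -0.02 to 0.21 and FH of -0.04 to 0.16. IDH1, IDH3A, SDHB and FH have the lowest GC content of the 9, at 43.1%, 43.4%, 43.9% and 39.9%, and the GC offset raised the OE versus EV value of each. With it SDHB was 0.26 and FH 0.37, and both were then called (edgeR, Benjamini-Hochberg adjusted p = 6.58e-05 and 6.9e-07). It also gave calls of -0.15 for OGDH and 0.11 for CS (edgeR, Benjamini-Hochberg adjusted p = 0.00563 and 0.0348). With library size only, which shifts the median of all genes here from -0.02 to -0.12, IDH3A was -0.22 and OGDH -0.13, and both were called (edgeR, Benjamini-Hochberg adjusted p = 0.00634 and 0.0326). Without KD 2, IDH3A (-0.12) and CS (0.10) were called, and CS also without OE 3 (0.13).

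**Figure D2:**
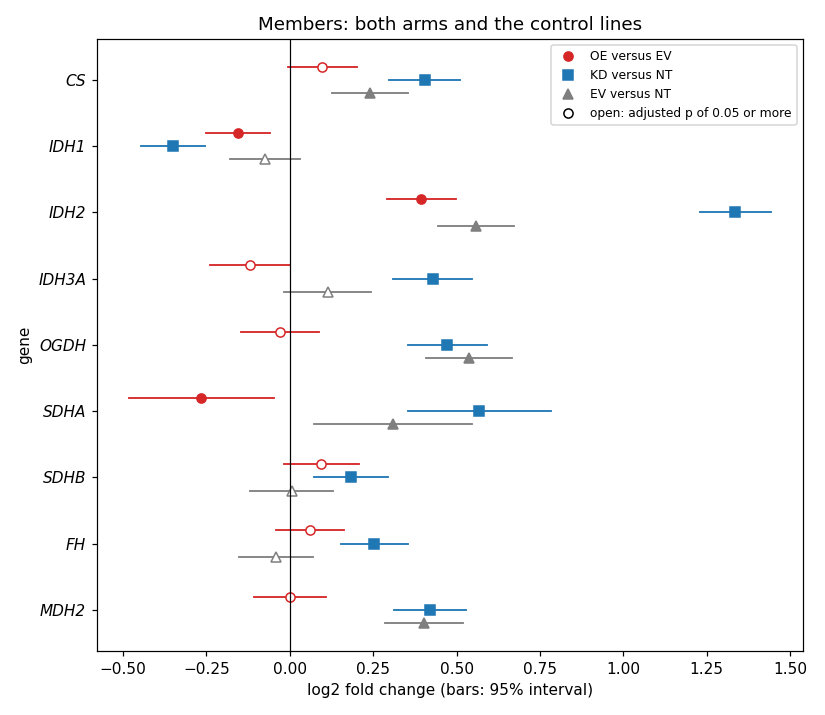
Log2 fold change (horizontal axis) of each gene in OE versus EV (circles), KD versus NT (squares) and EV versus NT (triangles), with 95% intervals. Filled symbols passed an adjusted p under 0.05. All 9 squares are filled, against 3 circles and 5 triangles, and IDH2 has the largest KD value at 1.33.

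The changes of the arms were then set against each other in the interaction (OE versus EV less KD versus NT), which is the study's own model. It was negative and called for 7 members and positive and called for IDH1, with SDHB the exception, where 44.3% of all tested genes were called (20.3% positive and 24% negative). At 0.0001 it was called for 5 members (IDH2, IDH3A, OGDH, SDHA and MDH2), where 15.9% of tested genes were. The interaction of IDH2 was -0.94 ± 0.07 (edgeR, Benjamini-Hochberg adjusted p = 1.33e-10), although IDH2 rose in both arms. For SDHA it was -0.83 ± 0.15 and for IDH3A -0.55 ± 0.08 (edgeR, Benjamini-Hochberg adjusted p = 5.79e-05 and 6.55e-06). For OGDH and MDH2 it was -0.50 ± 0.08 and -0.42 ± 0.07 (edgeR, Benjamini-Hochberg adjusted p = 1.63e-05 and 5.2e-05). The interaction is by its terms also OE versus KD less EV versus NT, the control lines. These values were 0.04 and 0.54 for OGDH, and -0.02 and 0.40 for MDH2. For both genes the larger term was thus the difference between the control lines. SDHB had an interaction of -0.09, with an interval of -0.25 to 0.07. With library size as the only scaling, which shifts the median of all genes from -0.02 to -0.15 in this comparison, IDH1 dropped to 0.06 and was not called, and SDHB was -0.22 and called (edgeR, Benjamini-Hochberg adjusted p = 0.47 and 0.0158). Without NT 1 or EV 1 IDH1 was also not called, at 0.17 and 0.18. The interaction of FH (-0.19) was the least firm, since it was -0.01 with the GC offset (edgeR, Benjamini-Hochberg adjusted p = 0.903) and was not called without a filter or when NT 1, NT 2, KD 1, EV 1, EV 2, OE 1 or OE 3 was left out, at -0.20 to -0.16.

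The control lines also differed. In EV cells, CS, IDH2, OGDH, SDHA and MDH2 were higher than in NT cells and none of the 9 was lower, where 34.1% of all tested genes were called (18.5% higher and 15.5% lower). At 0.0001 the 3 called were IDH2, OGDH and MDH2, where 8.16% of tested genes were. The log2 fold change was 0.56 for IDH2, 0.54 for OGDH, 0.40 for MDH2, 0.24 for CS and 0.31 for SDHA (edgeR, Benjamini-Hochberg adjusted p = 3.65e-08, 3.89e-07, 6.56e-06, 0.00153 and 0.04). The SDHA call was lost with DESeq2 (0.31), with the GC offset (0.27) and without NT 2, EV 1 or EV 2 (0.22 to 0.34). The EV and NT lines differ in vector, insert and selection drug, which cannot be told apart. KD versus NT and EV versus NT share the NT samples. For OGDH the values were 0.47 in KD versus NT and 0.54 in EV versus NT, and for MDH2 0.42 and 0.40. For IDH3A they were 0.43 and 0.11 (0.19 and called in EV versus NT with the GC offset, edgeR, Benjamini-Hochberg adjusted p = 0.00829), and for FH 0.25 and -0.04.

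In the direct comparison of OE with KD, which leaves both controls out, FH, IDH2, IDH3A and SDHA were lower in OE, IDH1 was higher and 4 members were not called, where 59.8% of all tested genes were called (29.2% higher and 30.6% lower). At 0.0001 the 4 lower members were called, where 31.9% of tested genes were. The log2 fold change was -0.43 for IDH3A, -0.38 for IDH2, -0.24 for FH and -0.52 for SDHA (edgeR, Benjamini-Hochberg adjusted p = 8.99e-08, 5.03e-08, 5.28e-05 and 2.63e-05). The value of FH turned to 0.09 with the GC offset. IDH1 was 0.12 higher (edgeR, Benjamini-Hochberg adjusted p = 0.0148), and -0.01 with library size alone. That scaling, which moves the median of all genes here from -0.02 to -0.15, also gave called values of -0.20 for CS, -0.21 for SDHB and -0.15 for MDH2 (edgeR, Benjamini-Hochberg adjusted p = 0.000205, 0.00045 and 0.00313). OGDH was 0.10 and called without KD 2 (edgeR, Benjamini-Hochberg adjusted p = 0.0442). For MDH2 the interval was between -0.11 and 0.08, and for OGDH between -0.07 and 0.14.

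Ordering the 4 lines by mean level gave different patterns. For IDH2 the order was KD (283 ± 13.1 CPM), OE (217 ± 7.91), EV (165 ± 3.90) and NT (112 ± 1.83; mean ± SD), and every neighbour in it differed. For OGDH and MDH2, the KD, OE and EV lines did not differ from their neighbours and NT was below them. NT was also lowest for CS, for which KD and OE, and OE and EV, did not differ, but EV was below KD, with a log2 fold change of -0.16 (edgeR, Benjamini-Hochberg adjusted p = 0.00997). For IDH3A and FH, KD was above the next line and the other 3 did not differ from their neighbours. For IDH1 the order ran the other way, from NT and EV, which did not differ, through OE to KD. For SDHA, KD was above EV and EV above OE (edgeR, Benjamini-Hochberg adjusted p = 0.0374 for both), and OE and NT did not differ. The call of EV above OE was lost under several settings, as given above. No neighbouring lines of SDHB differed, but KD, its highest line, was above NT, its lowest, by 0.18 on the log2 scale (edgeR, Benjamini-Hochberg adjusted p = 0.00537). In all, 12 of the 27 neighbouring pairs of lines over the 9 genes differed at an adjusted p under 0.05. Over all tested genes, 34.1% were called in EV versus NT, 52.0% in OE versus EV, 57.5% in KD versus NT and 59.8% in OE versus KD. Neighbours were set by the means of the same samples, so the count describes the order only.

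The shift between the NADP-dependent enzymes can be read within each library, where scaling between libraries plays no part. IDH2 made up 25.01% and 26.2% of the summed IDH1 and IDH2 counts in the NT libraries, and 52.0%, 54.3% and 51.2% in the KD libraries. It was 34.9% and 34.7% in EV, and 43.4%, 44.5% and 43.5% in OE. The 4 lines did not overlap in this share, which is of counts and is not corrected for gene length or GC content. GC content is 55.5% for IDH2 and 43.1% for IDH1, and the GC offset turned the OE versus EV value of IDH1 to 0.04. Neither gene shares a stretch of 100 bases with another annotated gene (0.0% of the MANE transcript for both). IDH1-AS1, an antisense transcript that overlaps IDH1, had 41 to 112 counts per library.

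**Figure D3:**
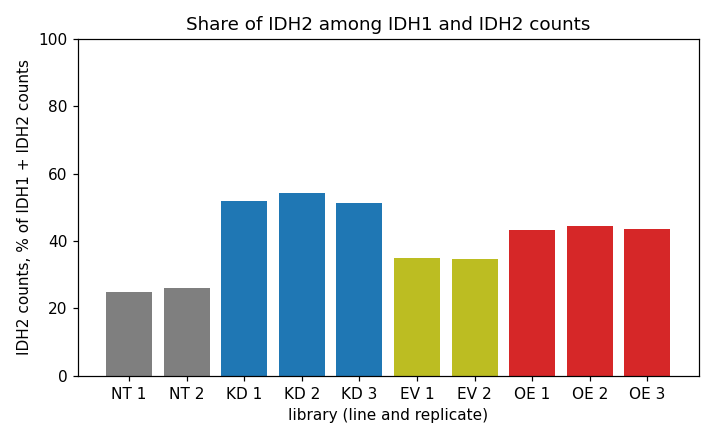
Share of IDH2 in the summed counts of IDH1 and IDH2 in each library, in percent, on an axis from 0 to 100. Bars are single libraries, coloured by line. NT bars stand at 25.01% and 26.2% and KD bars at 51.2% to 54.3%.

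Between genes, levels were compared per kilobase of exon (CPM divided by the union of the exons of each gene). MDH2 was highest, with a mean over the 10 libraries of 151 CPM per kb, followed by IDH2 at 73.8, CS at 66.6, IDH1 and OGDH at 61.2 each, SDHB at 26.1, FH at 11.8, IDH3A at 9.78 and SDHA at 1.27. The place of IDH2 depended on the line, since it had 40.3 CPM per kb in NT and 101.6 in KD. The order also depended on the length used. With the longest or the MANE Select transcript IDH2 had rank 4, below CS and IDH1. FH had 21.5 and 61.5 CPM per kb with these lengths, and SDHB 54.9 and 62.9. MDH2 was 118 times the level of SDHA on this scale. The ratio was 68.6 with the longest transcript and 61.5 with the MANE Select transcript.

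SDHA and SDHB encode partners of 1 complex, and the SDHA level was lower. SDHA had 213 to 393 counts per library and SDHB 1418 to 2045. Of the 100-base stretches of the SDHA MANE transcript, 65.6% occur in at least 1 other annotated gene. Most of these (64.6% of the transcript) are shared with ENSG00000286001, a read-through gene on the same strand in GENCODE v44, and 2.7% with the pseudogene SDHAP3. GENCODE v44 names ENSG00000286001 only by this identifier, which was not found among the symbols of the count table. Whether the authors' earlier release counted it under another name was not checked. How the authors' counting treated reads that fit several genes is not given in the sources used here, so the absolute level of SDHA is uncertain and the part of shared sequence in it was not tested. SDHAP1 had 181 to 392 counts, SDHAP3 106 to 339 and SDHAP2 0 in every library. In KD versus NT SDHAP3 fell by 0.45 on the log2 scale, while SDHA rose (edgeR, Benjamini-Hochberg adjusted p = 0.00551), and it was not called without NT 2 (-0.35). In OE versus EV SDHAP1 and SDHAP3 fell by 0.47 and 0.88 (edgeR, Benjamini-Hochberg adjusted p = 0.000625 and 8.64e-06), SDHAP1 not called without EV 1 (-0.29). For IDH3A, 63.1% of the transcript's 100-base stretches overlap ACSBG1 on the opposite strand, and 10.1% of CS stretches are shared with a pseudogene and a read-through gene, whereas OGDH, SDHB, FH and MDH2 share none (0.0%).

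A further 12 genes of the cycle were counted. In KD versus NT 4 of the 12 were higher and 3 lower, 2 rose and 5 fell in OE versus EV, and in the interaction none was higher and 7 were lower. Over all tested genes, 57.5%, 52.0% and 44.3% were called in these comparisons. The IDH3 complex partners of IDH3A rose in both arms, IDH3B by 0.38 and 0.24 and IDH3G by 0.25 and 0.16 (edgeR, Benjamini-Hochberg adjusted p = 6.98e-06, 0.00184, 0.00158 and 0.0336). However, IDH3G in OE versus EV became -0.02 with the GC offset. It was also not called with library size only (0.06) or without EV 2, OE 1 or OE 2 (0.11 to 0.16). IDH3A itself was not called in OE versus EV. In EV versus NT IDH3G was 0.28 higher (edgeR, Benjamini-Hochberg adjusted p = 0.00241), and IDH3B had 0.09 and was not called. The cytosolic aconitase ACO1 rose in KD cells, by 0.16 (edgeR, Benjamini-Hochberg adjusted p = 0.0301), a call lost without NT 1, NT 2 or KD 2 (0.12 to 0.19).

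DLST, the transferase core of the complex, rose with OGDH in KD cells, by 0.44 (edgeR, Benjamini-Hochberg adjusted p = 3.88e-08). DLD, the dehydrogenase shared by the oxoglutarate and pyruvate dehydrogenase complexes, had 138.7 and 147.3 CPM in EV and 80.0, 79.7 and 83.6 CPM in OE. It was lower in every OE sample, with a log2 fold change of -0.82 ± 0.05 (edgeR, Benjamini-Hochberg adjusted p = 7.8e-12), and had 0.01 in KD versus NT (interval -0.09 to 0.12). OGDHL, a paralog of OGDH, fell in both arms, by 0.45 in KD versus NT and 0.88 in OE versus EV (edgeR, Benjamini-Hochberg adjusted p = 1.61e-05 and 1.34e-09). In EV versus NT DLST and OGDHL were 0.22 and 0.31 higher (edgeR, Benjamini-Hochberg adjusted p = 0.00251 and 0.00361), and DLD had 0.01. In the next step, SUCLG2 and SUCLA2, the GTP-forming and ATP-forming subunits of succinyl-CoA ligase, fell in OE cells by 0.49 and 0.44 (edgeR, Benjamini-Hochberg adjusted p = 1.42e-08 and 8.46e-06). Their shared subunit SUCLG1 had 0.01, with an interval of -0.11 to 0.12. SUCLA2 was also lower in KD versus NT and in EV versus NT, by 0.19 and 0.23 (edgeR, Benjamini-Hochberg adjusted p = 0.0126 and 0.016). SUCLG2 had 0.02 and 0.05 there and was not called. The KD call of SUCLA2 was lost with library size only (-0.16) and with the GC offset (-0.09). Its KD value was -0.20 without NT 1 and -0.18 without NT 2.

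Among the membrane anchors of succinate dehydrogenase, SDHD fell in both arms, by 0.33 in KD versus NT and 0.36 in OE versus EV (edgeR, Benjamini-Hochberg adjusted p = 4.74e-05 and 4.32e-05), while SDHC had 0.09 and -0.10 and was not called. The OE versus EV value of SDHD shrank to -0.04 with the GC offset (edgeR, Benjamini-Hochberg adjusted p = 0.556). In KD cells SDHA and SDHB rose and SDHD fell. SDHD was also lower in EV than in NT cells, by 0.35 (edgeR, Benjamini-Hochberg adjusted p = 0.000189), while SDHC had 0.03 and was not called. Of 4 assembly factors, SDHAF1 rose in both arms, by 0.28 and 0.56 (edgeR, Benjamini-Hochberg adjusted p = 0.00595 and 3.2e-06). SDHAF4 rose in OE versus EV by 0.35, and SDHAF3 fell in KD versus NT by 0.22 (edgeR, Benjamini-Hochberg adjusted p = 0.00614 and 0.0405). The SDHAF3 call was lost under several settings, with -0.01 under the GC offset. The KD call of SDHAF1 was lost without NT 2 (0.21), and the OE call of SDHAF4 without EV 1 (0.32). SDHAF2, with 79 to 130 counts per library, was called in neither. In EV versus NT SDHAF3 was 0.41 lower (edgeR, Benjamini-Hochberg adjusted p = 0.00323), and SDHAF1 (0.20) and SDHAF4 (0.25) were not called. MDH1, the cytosolic counterpart of MDH2, had 0.10 and -0.10 and was called in neither arm.

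**Figure D4:**
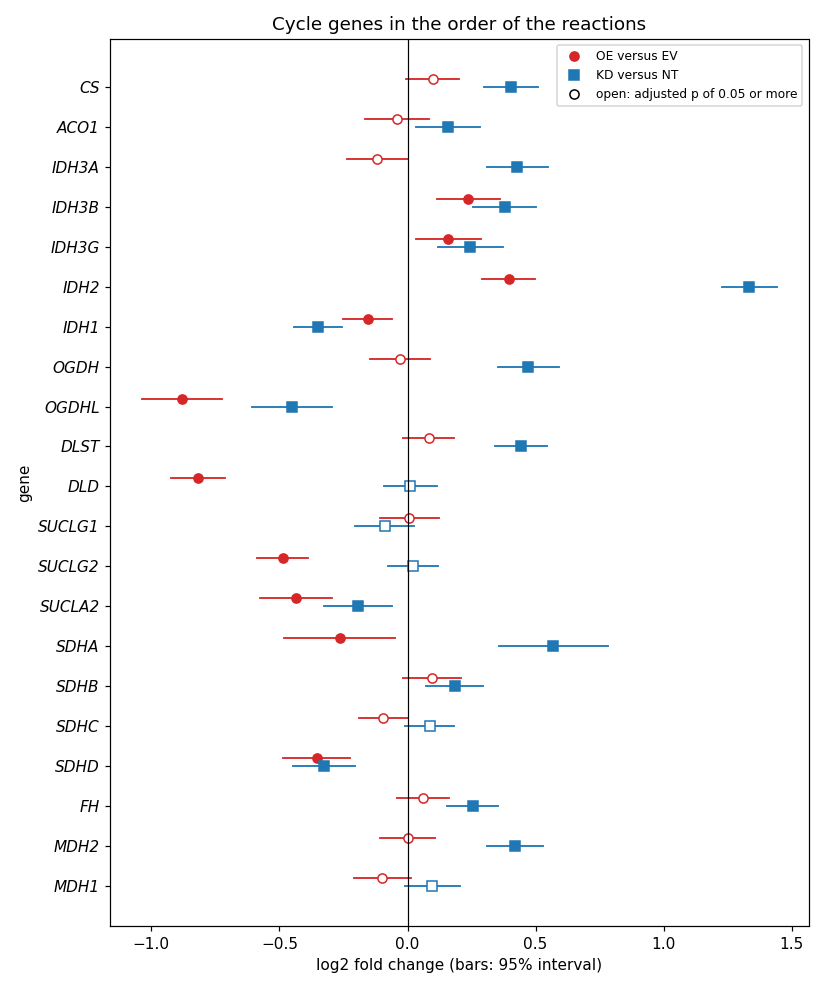
Log2 fold change (horizontal axis, with 95% intervals) of the 9 members and the 12 further cycle genes, from citrate synthase at the top to the malate dehydrogenases at the bottom, in OE versus EV (circles) and KD versus NT (squares). Filled symbols passed an adjusted p under 0.05. DLD and OGDHL reach -0.82 and -0.88 in OE versus EV, and IDH2 reaches 1.33 in KD versus NT.

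Genes that bring carbon to the cycle were counted by list. In this list and the lists that follow, the genes named are the 3 of smallest interaction p. That choice favours genes that differ between the arms, so they do not stand for their list. Of 12 tested genes of pyruvate entry, 8 were higher and 2 lower in KD versus NT, and 2 rose and 6 fell in OE cells, where the GC offset gave 3 higher and 2 lower. Over all tested genes 29.1% were higher and 28.4% lower in KD versus NT, and 25.6% and 26.4% in OE versus EV. MPC2, a subunit of the mitochondrial pyruvate carrier, rose in both arms as IDH2 did, by 1.12 in KD and 0.34 in OE (edgeR, Benjamini-Hochberg adjusted p = 2.59e-15 and 2.57e-06). The pyruvate dehydrogenase subunits DLAT and PDHA1 rose in KD by 0.58 and 0.39 (edgeR, Benjamini-Hochberg adjusted p = 1.39e-09 and 4.05e-07). Between the control lines, EV versus NT, MPC2 was 0.57 higher (edgeR, Benjamini-Hochberg adjusted p = 1.15e-08). DLAT and PDHA1 had 0.10 and 0.12 there and were not called. In OE versus EV PDHA1 fell by 0.26 and DLAT by 0.18 (edgeR, Benjamini-Hochberg adjusted p = 0.000127 and 0.00772), but DLAT was 0.11 with the GC offset and was not called without EV 2 or OE 1 (-0.15 and -0.14).

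Of 7 mitochondrial carriers, 6 rose and none fell in KD versus NT, and 4 rose and 1 fell in OE versus EV. SLC25A22, a glutamate carrier, rose by 0.94 and 0.34, and SLC25A13, the aspartate-glutamate carrier, rose by 0.59 in KD and fell by 0.30 in OE (edgeR, Benjamini-Hochberg adjusted p = 2.9e-13, 6.53e-06, 1.54e-08 and 0.000202). SLC25A10, the dicarboxylate carrier, rose by 0.85 in KD (edgeR, Benjamini-Hochberg adjusted p = 1.38e-08) and had 0.19 in OE. Of 13 tested genes that feed or drain the cycle, 3 rose and 7 fell in KD, and 3 rose and 4 fell in OE. PCK2, the mitochondrial enzyme that draws off oxaloacetate, fell by 1.18 in KD and rose by 0.54 in OE (edgeR, Benjamini-Hochberg adjusted p = 5.37e-14 and 1.09e-07). GPT2, which makes 2-oxoglutarate from glutamate and pyruvate, fell in both arms, by 0.86 and 0.23, and GOT2, the mitochondrial aspartate aminotransferase, rose in both, by 0.91 and 0.20 (edgeR, Benjamini-Hochberg adjusted p = 8.03e-13, 0.000685, 3.46e-13 and 0.00225). The OE value of GOT2 was 0.10 and not called with library size only. Of 12 beta-oxidation genes, the source of acetyl-CoA from fatty acids, 6 rose and 2 fell in KD, and 3 rose and 4 fell in OE. The shares called of the genes that feed or drain the cycle and of beta-oxidation can be read against 57.5% of all tested genes in KD and 52.0% in OE, as can those of the carriers. ECHS1 rose by 0.76 in KD and fell by 0.21 in OE, and ACADS rose by 0.80 in KD (edgeR, Benjamini-Hochberg adjusted p = 5.31e-12, 0.00112 and 2.9e-09). Without EV 1 the OE value of ECHS1 was -0.13 and not called. ACADL rose by 0.65 in KD and fell by 0.73 in OE (edgeR, Benjamini-Hochberg adjusted p = 0.000521 and 0.000101). The control lines differed in many of these genes. In EV versus NT the called values were ACADL 0.95, ACADS 0.65, ECHS1 0.24, SLC25A22 0.61, SLC25A13 0.46, SLC25A10 0.27 and GPT2 -0.30. PCK2 (0.02) and GOT2 (0.09) were not called there.

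The genes whose pattern over the 10 samples was most like each member were listed by Pearson's r of log2 CPM among 12601 candidates. The 10 points come from 4 lines and share those line means, so r describes the pattern only. IDH2 was most like TSPAN15 (r = 0.996) and CKB (0.996), and IDH1 most like ZNF211 (0.99) and ZNF419 (0.984). CS was most like ALDH18A1 (0.994) and CCT7 (0.989), OGDH like TMEM132A (0.997) and PLBD2 (0.977), and MDH2 like SLC25A39 (0.984) and ACADS (0.981). IDH3A was most like ERCC6L (0.988) and SRRM1 (0.983), FH like RANBP1 (0.987) and TUBB (0.982), SDHA like CHSY1 (0.980) and ELAVL2 (0.967), and SDHB like NOCT (0.953) and ANKRD27 (0.949). The members were left out of the candidates, so likeness between members was not measured.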

How the data were processed

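RNA from 10 samples of LNCaP-C4-2 lines was sequenced in pairs from poly(A) libraries. The authors trimmed reads with BBDuk, dropping those under 50 bp, mapped them with STAR 2.6.0a to hg38 and deposited whole-number counts per gene symbol. Strand use and the handling of reads that fit several genes are not given in the sources used here. Samples were grouped by the labels, and 0 columns were left out. Genes passing filterByExpr (17230 of 57353) were fitted with edgeR 4.0.16 (R 4.3.3; common biological coefficient of variation 0.0446) with TMM scaling, 1 mean per line over all 10 samples, and Benjamini-Hochberg adjustment over all tested genes in each of 5 comparisons. The study used limma. Calls were made at 0.05, with the study's 0.0001 beside it. SE is the log2 fold change over the square root of F, and intervals are 95%. The fit was tested on simulated data. Positions, lengths and GC came from GENCODE v44, matched by symbol (81% of tested genes); the authors' annotation was an earlier release.

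The members and lists were chosen with earlier results of these data known. Genes named were the members, CPT1A, the further cycle genes, assembly factors and copies, the 3 genes of smallest interaction p in each pathway list, and the 2 genes most like each member with a mean log2 CPM of at least 1. The alternatives tried were a GC offset, a replicate block, each arm alone, limma-voom (limma 3.58.1), scaling with DESeq2 size factors or by library size only, the Wald test of DESeq2 1.42.0, another filter (none, or 10 counts or more in all samples), other gene lengths and leaving out each sample. Of the lists, 1 gene is not reported here. The MANE Select length was added after the data were seen.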

Additional observations from a re-analysis of the deposited data

How the results depend on the processing

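For each member in each comparison, 359 of 396 values kept their direction and side of the threshold over the other settings, and 418 of 450 over the fits that left out 1 sample. The KD versus NT calls held under every alternative except for SDHB, which was not called without NT 1 or at an adjusted p under 0.0001. The count of members called in OE versus EV went from 3 to 1 at an adjusted p under 0.0001, to 5 with library size only (1 higher, 4 lower) and to 6 with the GC offset (4 higher, 2 lower). In EV versus NT it went from 5 to 3 and in the interaction from 8 to 5, both at 0.0001. The ratio of the MDH2 to the SDHA level moved from 118 to 68.6 and 61.5 with other lengths. Leaving out 1 sample gave 1 to 5 members called in OE versus EV (5 without KD 2, 1 without EV 2), 8 to 9 in KD versus NT, 4 to 5 in EV versus NT, 5 to 6 in OE versus KD, 6 to 8 in the interaction, and 9 to 14 differing neighbours in the order of the lines. A fit that leaves NT or EV with 1 sample assumes that this sample varies like the others.

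Values that changed sign were these. In OE versus EV, library size only, which moved the median of all genes from -0.02 to -0.12, gave CS -6e-04, SDHB -0.0038, FH -0.0388 and MDH2 -0.10. At least 10 counts gave MDH2 -0.0112. The GC offset gave IDH1 0.0383, IDH3A 0.066, MDH2 -0.0681, IDH3G -0.0161 and DLAT 0.11. Leaving out 1 sample gave OGDH -0.0715 to 0.0241 and MDH2 -0.0247 to 0.0238. In EV versus NT, SDHB was -0.0075 with at least 10 counts and -0.0562 to 0.0702 with 1 sample left out, and the GC offset gave IDH1 0.0076 and FH 0.10. In OE versus KD, library size only, with a median shift from -0.02 to -0.15, gave IDH1 -0.0098 and OGDH -0.0927. The GC offset gave OGDH -0.0822, SDHB 0.0814 and FH 0.0879. Leaving out 1 sample gave MDH2 -0.0458 to 0.0338 and OGDH -0.0071 to 0.0992. In the interaction the GC offset gave SDHB 0.0104. The cause of these changes was not tested.

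Deviations from the group means of same-numbered samples correlated at -0.0028 on average over 13 pairs, against 0.0016 over 24 other pairs, so the numbers were not taken as pairs. With the replicate block, 43 of 45 member values kept their call, and the counts stayed at 3, 9, 5, 5 and 8. CS in OE versus EV became called at 0.13 and SDHA lost its call at -0.21 (edgeR, Benjamini-Hochberg adjusted p = 0.0167 and 0.0787).

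SDHA, at 213 to 393 counts, had the widest interval of the 9. With 2 NT and 2 EV samples, small changes can be missed.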

Other observations

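The change of each member was set beside that of its chromosomal neighbours, the tested genes within 5 Mb, as a description. IDH2 on chromosome 15 had 54 such neighbours with a median log2 fold change of 0.29 in KD versus NT, against its own 1.33. MDH2 on chromosome 7 had 66 neighbours with medians of 0.20 in KD versus NT and 0.25 in EV versus NT, against its own 0.42 and 0.40. IDH1 on chromosome 2 had 28 neighbours with medians of -0.18 in KD versus NT and -0.17 in OE versus EV, against its own -0.35 and -0.15. FH on chromosome 1 had 19 neighbours with medians of -0.16 in KD versus NT and -0.19 in OE versus EV, against its own 0.25 and 0.06. Copy number was not measured here.

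IDH1-AS1, which overlaps IDH1 on the opposite strand, rose in both arms while IDH1 fell, by 1.02 in KD versus NT and 0.53 in OE versus EV (edgeR, Benjamini-Hochberg adjusted p = 5.3e-05 and 0.0128), the latter not called without EV 2 or OE 3 (0.46 and 0.41). Its counts were 41 and 48 in NT, 82, 95 and 108 in KD, 70 and 61 in EV, and 88, 75 and 112 in OE. Whether the counting used strand is not given in the sources used here.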
